A study of Rattus norvegicus with 16 samples.

Results

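The genes described are 34 genes of blood vessel walls: 30 markers of endothelial cells, the cells that line vessels, and 4 growth factors that act on them (Vegfa, Vegfb, Angpt1 and Angpt2). They were chosen by gene symbol, and 30 of the 34 symbols had a row among the 31141 genes of the deposited table. These were 26 markers and all 4 growth factors. No row carried the names Flt1, Cldn5, Ramp2 or Robo4, so these 4 were not counted among the measured markers. Values are FPKM, the fragments assigned to a gene relative to its length and to the scaled size of the library, so they can be compared between genes as well as between libraries.

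Messenger RNA of the tibialis anterior, a hindlimb muscle, was sequenced in 16 libraries from Wistar-Imamichi rats aged 9 months. The groups were Dmd-mutant rats on MCTKD (DMD_KD, 6 libraries), Dmd-mutant rats fed the normal diet (DMD_ND, 6 libraries) and wild-type rats fed the normal diet (WT_ND, 4 libraries). Diets began at weaning. MCTKD is not spelled out by the submitters; in nutrition the letters usually mean a ketogenic diet based on medium-chain triglycerides. Dmd encodes dystrophin, whose loss causes Duchenne muscular dystrophy. Whether every library is its own animal is not stated, so p-values here reflect only how far these samples vary, and some of that variation may be technical.

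Vegfa, made largely by muscle fibres, drives the growth and survival of capillaries by binding the receptor Kdr on endothelial cells, and Vegfb binds the related receptor Flt1. Angpt1, made by cells around the vessel, activates the endothelial receptor Tek and steadies the vessel wall, whereas Angpt2, made by endothelial cells themselves, can block that signal. Endothelial identity is held by transcription factors of the ETS and SOX families, and the markers also include the junction proteins and surface receptors through which the vessel wall works.

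The promoters of the genes on which the results turn are printed first, with capitals marking every match to 5 short motifs on either strand. The motifs were CCGGAAG (a strong ETS factor site), GATAA (GATA factors), GGGCGG (the GC box), ACGTG (the core of the hypoxia response element) and AAGGTCA (a site of estrogen-related receptors). On the opposite strand the GC box reads CCGCCC and the last motif TGACCTT. A match is a description of the letters, not a site. Each window runs from 250 bases before to 50 bases after a RefSeq gene start in GRCr8 and is written 5′ to 3′ on the gene's strand. The windows are Plvap (minus strand, chr16:18231230-18231529), Kdr (plus strand, chr14:32571813-32572112), Vegfb (minus strand, chr1:213607103-213607402) and Vegfa at 2 starts (plus strand, chr9:22452604-22452903 and chr9:22460028-22460327).
Plvap: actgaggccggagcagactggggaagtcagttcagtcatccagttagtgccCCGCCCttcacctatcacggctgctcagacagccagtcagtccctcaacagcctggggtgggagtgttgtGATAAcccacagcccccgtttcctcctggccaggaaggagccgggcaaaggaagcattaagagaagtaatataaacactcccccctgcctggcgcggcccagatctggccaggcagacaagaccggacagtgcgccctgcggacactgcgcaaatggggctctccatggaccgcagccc
Kdr: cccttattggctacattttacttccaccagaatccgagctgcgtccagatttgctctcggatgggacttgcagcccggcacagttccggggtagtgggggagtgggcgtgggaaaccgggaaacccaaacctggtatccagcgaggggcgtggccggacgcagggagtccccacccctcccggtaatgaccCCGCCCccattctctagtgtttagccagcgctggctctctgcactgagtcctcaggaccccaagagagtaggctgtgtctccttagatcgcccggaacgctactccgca
Vegfb: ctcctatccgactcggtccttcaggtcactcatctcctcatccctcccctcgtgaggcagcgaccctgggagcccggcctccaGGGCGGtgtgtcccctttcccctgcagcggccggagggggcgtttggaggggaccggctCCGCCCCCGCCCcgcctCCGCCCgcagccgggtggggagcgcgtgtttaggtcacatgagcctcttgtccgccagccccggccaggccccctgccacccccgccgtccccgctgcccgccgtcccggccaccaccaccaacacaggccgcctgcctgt
Vegfa, first start: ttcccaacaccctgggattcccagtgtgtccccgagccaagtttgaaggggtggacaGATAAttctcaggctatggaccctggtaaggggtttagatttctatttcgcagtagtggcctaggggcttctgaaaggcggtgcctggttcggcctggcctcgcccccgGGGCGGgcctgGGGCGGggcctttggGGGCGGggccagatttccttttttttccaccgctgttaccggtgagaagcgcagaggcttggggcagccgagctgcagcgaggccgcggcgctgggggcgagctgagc
Vegfa, second start: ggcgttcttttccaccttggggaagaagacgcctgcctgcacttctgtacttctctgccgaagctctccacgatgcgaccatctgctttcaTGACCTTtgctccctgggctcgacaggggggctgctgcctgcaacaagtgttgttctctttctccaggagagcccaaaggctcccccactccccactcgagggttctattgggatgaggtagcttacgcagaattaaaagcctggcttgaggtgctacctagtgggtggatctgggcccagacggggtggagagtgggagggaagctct

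Plvap, the marker with the largest rise in mutant muscle, held 1 GATAA and 1 GC box, and Kdr, a marker that fell, held 1 GC box. Vegfb, the growth factor with the largest fall, held 4 GC boxes, 2 of them abutting, and Vegfa 3 at its first start. Windows were found for 16 of the 30 members with a row, 14 markers and both VEGF genes. GATAA was in 7 of the 14 markers (Ecscr, Egfl7, Emcn, Erg, Myct1, Nos3 and Plvap), against 27.7% of the 27457 genes with a window. The GC box was in 8 of the 14 (36.0% of all genes) and in both VEGF genes. ACGTG was in Clec14a, Mmrn2 and Myct1 (20.9% of all genes) and in neither VEGF gene. AAGGTCA was in Emcn and at the second start of Vegfa (4.83% of all genes), and CCGGAAG was in none of the 14 markers (9.63% of all genes).

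Libraries held 17125084 to 28116085 reads assigned to genes. The Dmd transcript averaged 1.36 ± 0.545 FPKM in DMD_KD, 1.76 ± 0.208 in DMD_ND (SD, n = 6 each) and 7.32 ± 3.32 in WT_ND (n = 4), and every mutant library lay below every wild-type one. DMD_KD replicate 3 stood apart from its group over all genes (-57.5 on the second principal component, which held 13.5% of the variance), and the wild-type libraries lay at -14.0 and -18.8 (replicates 1 and 4) and at 30.1 and 25.3 (replicates 3 and 9). Limma's library weights were lowest for DMD_KD replicate 3 and WT_ND replicates 1 and 4. Markers of other cells of the muscle differed with genotype. All 12 macrophage markers, all 11 markers of fibro-adipogenic progenitors and all 4 tested lymphatic endothelial markers were higher in DMD_ND than in WT_ND. These lists were also all higher under TPM. Of 11 muscle fibre genes 10 were lower, and under TPM 3 were lower and 1 higher. Over all tested genes 31.5% were higher and 34.3% lower, and under TPM 70.7% and 5.94%. In RNA from whole muscle, fewer cells of a type and less RNA per cell cannot be told apart.

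All 26 measured markers were detected in every library. Their FPKM values summed to 169 ± 17.1 in DMD_KD, 173 ± 22.0 in DMD_ND (SD, n = 6 each) and 159 ± 19.4 in WT_ND (n = 4), and the 3 groups overlapped. The 4 growth factors summed to 73.3 ± 14.2 in DMD_KD, 70.4 ± 5.08 in DMD_ND and 150 ± 49.5 FPKM in WT_ND. On this deposited scale every wild-type library lay above every mutant library. The lowest wild-type sum was 109 FPKM, and the highest mutant sums were 89.3 in DMD_KD and 77.9 in DMD_ND. Vegfa and Vegfb made up most of the growth factor sum, with means of 90.7 and 48.4 FPKM in WT_ND. Angpt1 and Angpt2 averaged 3.84 and 6.91 FPKM there, so this separation says little about them.

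These sums depend on the scaling. The deposited FPKM are scaled between libraries by the typical gene, and the size factors behind them averaged 1.10 ± 0.266 in DMD_KD, 1.23 ± 0.138 in DMD_ND and 0.714 ± 0.160 in WT_ND. As a share of all assigned reads (RPM, a library's reads scaled only to its total), the markers took 673 ± 145 RPM in DMD_KD, 787 ± 142 in DMD_ND and 440 ± 62.5 in WT_ND. On that scale the DMD_ND libraries (656 to 996) all lay above the WT_ND libraries (362 to 507), while DMD_KD (461 to 823) overlapped them. Rescaling to equal totals (TPM) moved the median log2 fold change of all 12119 tested genes in DMD_ND against WT_ND to 0.83. In DMD_KD against WT_ND it moved to 0.56, so TPM values are also given relative to those medians. That subtraction scales by the typical gene again, as the deposited values do. The relative values are therefore no independent check of the scaling. The separation of the growth factor sums is stated for the deposited scale only. Under TPM the median log2 fold change of the 4 growth factors in DMD_ND against WT_ND was 0.28, below the 0.83 of all genes. Of these 4, 1 was then called higher and 1 lower.

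**Figure D1:**
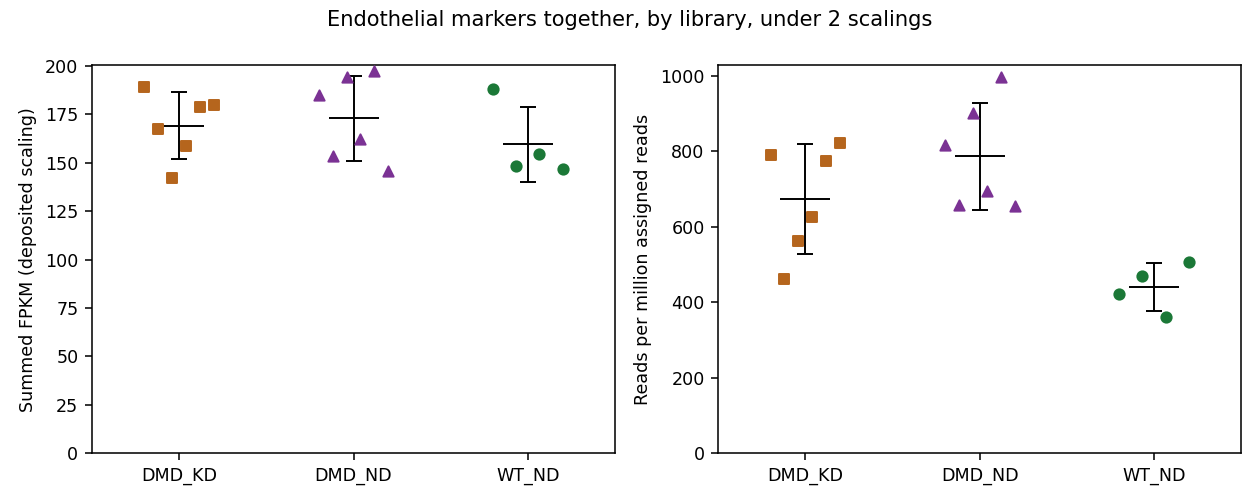
Endothelial markers summed over 26 genes in each library, as deposited FPKM (left) and as RPM, reads scaled to the assigned total (right), for DMD_KD, DMD_ND and WT_ND; points are libraries, and the horizontal mark and bars are the mean and SD. The groups overlap on the left (means 169, 173 and 159 FPKM), whereas on the right every DMD_ND library lies above every WT_ND library.

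DMD_ND against WT_ND compares mutant with wild-type muscle on one diet. The endothelial markers moved in both directions by similar numbers, while all 4 growth factors had lower means in mutant muscle. Of the 25 markers that passed the filter on low values, 4 rose and 4 fell, and 17 were not called (limma on log2(FPKM + 1), Benjamini-Hochberg adjusted p under 0.05 over all tested genes). Over all tested genes 31.5% were higher and 34.3% lower, so both shares of the markers were below the background. The markers' median log2 fold change was 0.14, against -0.04 over all tested genes. Of the 4 growth factors, 2 fell (Vegfb and Vegfa) and none rose, with a median of -0.62. Tal1, a transcription factor shared by blood and endothelial lineages, lay between 0.218 and 1.01 FPKM in the 16 libraries and was not tested. An unnamed row described as roundabout guidance receptor 4 (Robo4), not counted among the markers, averaged 2.53 FPKM in DMD_ND and 3.06 in WT_ND. Its log2 fold change was -0.20 (limma adjusted p = 0.0771), not called.

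Vegfb, which is abundant in heart and oxidative muscle, gave the clearest difference among the growth factors. Its level was 17.5 to 33.6 FPKM in DMD_KD (median 21.1), 16.5 to 19.4 in DMD_ND (median 18.2), and 62.8, 43.0, 55.5 and 32.4 FPKM in WT_ND replicates 1, 3, 4 and 9. Every DMD_ND library lay below every wild-type one, while DMD_KD replicate 3, at 33.6 FPKM, reached above the lowest wild-type library. In DMD_ND against WT_ND its log2 fold change was -1.33 (SE 0.17, adjusted p = 3.95e-06 by limma). It was called lower under every alternative run, TPM included, where it was -0.36, or -1.18 relative to the median gene.

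Vegfa lay between 18.2 and 59.1 FPKM in DMD_KD (median 49.9) and between 37.9 and 51.4 in DMD_ND (median 44.7). In WT_ND it was 53.6, 168, 43.8 and 97.4 FPKM in replicates 1, 3, 4 and 9. Wild-type replicates 3 and 9 were far above every mutant library, whereas wild-type replicate 4 lay inside the DMD_ND range, so the groups overlapped. In DMD_ND against WT_ND its log2 fold change was -0.83 (SE 0.34, adjusted p = 0.0401 by limma). On leaving out WT_ND replicate 3 it was -0.47 (adjusted p = 0.1999) and without WT_ND replicate 9 it was -0.73 (adjusted p = 0.103), and the call was also lost on leaving out any of 5 DMD_ND libraries (replicates 3, 5, 6, 9 and 11). With the 3 libraries of lowest weight left out it was -1.52 (adjusted p = 6.64e-05). That run drops WT_ND replicates 1 and 4 and keeps only replicates 3 and 9 of the wild type, those with the highest Vegfa. Under TPM the log2 fold change of Vegfa was 0.17, or -0.66 relative to the median gene.

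Neither angiopoietin was called in DMD_ND against WT_ND. Angpt1 lay between 1.16 and 2.94 FPKM in DMD_KD and between 2.29 and 3.07 in DMD_ND, against 2.96, 5.10, 2.08 and 5.22 FPKM in WT_ND replicates 1, 3, 4 and 9. As for Vegfa, wild-type replicates 3 and 9 were high and replicate 4 was low. Its log2 fold change in DMD_ND against WT_ND was -0.40 (SE 0.19, limma adjusted p = 0.0731), and -0.60 without WT_ND replicate 4 (adjusted p = 0.00839). Angpt2 lay between 2.53 and 6.09 FPKM in DMD_KD and between 4.29 and 7.04 in DMD_ND, against 6.40, 5.19, 7.99 and 8.08 in WT_ND, with overlap. Its log2 fold change was -0.26 (SE 0.18, adjusted p = 0.225 by limma).

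**Figure D2:**
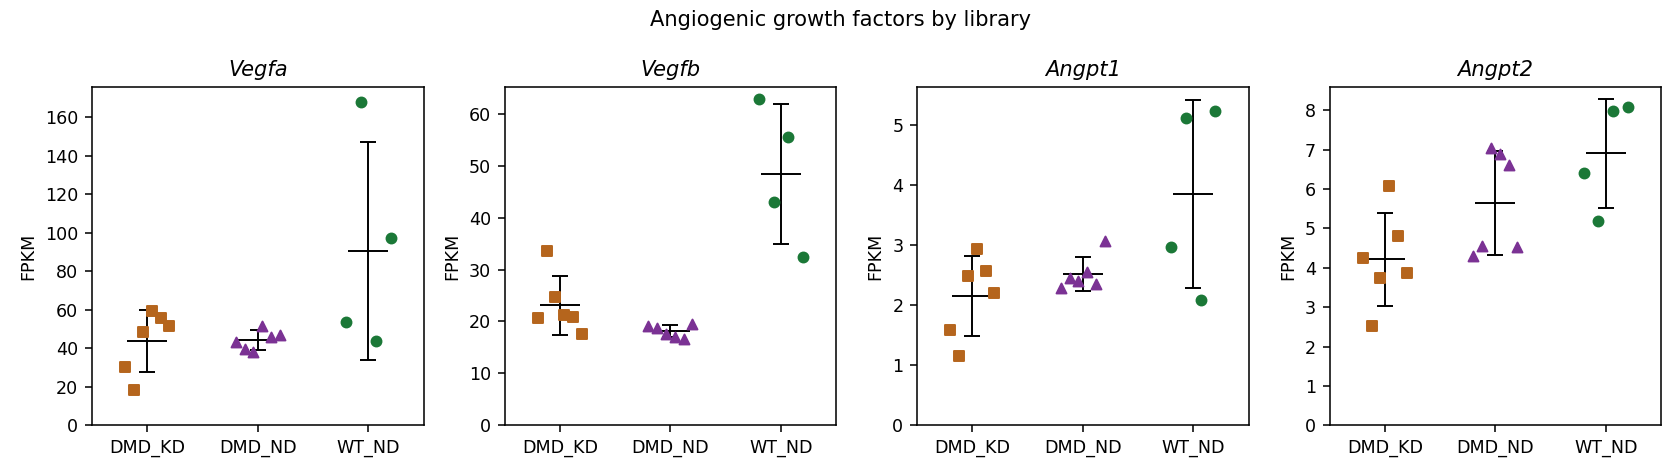
FPKM of the 4 angiogenic growth factors in each library of DMD_KD, DMD_ND and WT_ND; points are libraries, and the horizontal mark and bars are the mean and SD. Vegfb shows no overlap between DMD_ND (16.5 to 19.4 FPKM) and WT_ND (32.4 to 62.8 FPKM), while for Vegfa WT_ND spreads between 43.8 and 168 FPKM.

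Among the adhesion and junction genes the markers parted. Plvap, which forms the diaphragms of fenestrae and caveolae and is scarce in the continuous capillaries of healthy muscle, was 15.3 to 24.4 FPKM in DMD_KD (median 19.9) and 14.5 to 26.3 in DMD_ND (median 18.4). In WT_ND it was 10.9, 4.28, 8.88 and 4.90 FPKM in replicates 1, 3, 4 and 9. Every mutant library of either diet lay above every wild-type library. The log2 fold change in DMD_ND against WT_ND was 1.39 (SE 0.22, limma adjusted p = 2.55e-05), a 2.62-fold rise on that scale, and 1.58 relative to the median gene under TPM. Esam, an adhesion molecule of endothelial tight junctions, was 13.4 to 16.4 FPKM in DMD_ND, against 9.13 to 12.1 in WT_ND, without overlap, and was higher by 0.41 on the log2 scale (SE 0.12, limma adjusted p = 0.00594).

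Cdh5, or VE-cadherin, the main adherens junction protein of endothelium, moved the other way. It was 11.1 to 13.3 FPKM in DMD_KD (median 11.96) and 8.63 to 12.7 in DMD_ND (median 10.496), against 23.9, 15.2, 18.3 and 14.7 FPKM in WT_ND replicates 1, 3, 4 and 9. All 12 mutant libraries lay below all 4 wild-type ones. The log2 fold change in DMD_ND against WT_ND was -0.69 (SE 0.13, limma adjusted p = 0.000162), and -0.56 relative to the median gene under TPM, where the value itself was 0.26 and not called. Mmrn2, a matrix protein of the vessel wall that binds Clec14a, was 3.45 to 6.06 FPKM in DMD_ND, against 5.34 to 8.75 in WT_ND, with overlap. It fell by 0.47 on the log2 scale (SE 0.15, limma adjusted p = 0.0123), a call lost without WT_ND replicate 1 (-0.37, adjusted p = 0.0576).

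Because the scaling cancels in a ratio of genes in the same library, Plvap was also set against Cdh5, a pair chosen after its values were seen and so given without a test. The Plvap to Cdh5 ratio of FPKM was 1.64 ± 0.226 in DMD_KD and 1.89 ± 0.497 in DMD_ND (SD, n = 6 each), against 0.390 ± 0.0973 in WT_ND (n = 4). The mutant libraries lay between 1.25 and 2.70 and the wild-type libraries between 0.282 and 0.486. Every mutant library already lay above the wild-type ones for Plvap and below them for Cdh5. A gap in the ratio was therefore fixed in advance and adds no separate support. The ratio of Vegfb to Cdh5 was 1.91 ± 0.406 in DMD_KD and 1.73 ± 0.276 in DMD_ND, against 2.68 ± 0.355 in WT_ND, with overlap.

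The other 4 adhesion genes were not called in DMD_ND against WT_ND. Pecam1, the classic endothelial marker, averaged 17.6 ± 1.99 FPKM in DMD_KD and 19.0 ± 4.14 in DMD_ND, against 15.8 ± 2.14 in WT_ND, with a log2 fold change of 0.23 in DMD_ND (95% interval -0.08 to 0.54). Emcn, a sialomucin of capillaries and veins, averaged 10.52 ± 2.72 FPKM in DMD_ND and 8.85 ± 0.280 in WT_ND. Its 4 wild-type libraries differed least of all markers (coefficient of variation 3.16%). Icam2, a leukocyte adhesion molecule (log2 fold change -0.20), and Clec14a, a lectin-like receptor (0.41, adjusted p = 0.0567), were also not called.

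Among the 7 receptor genes, 1 rose, 2 fell and 4 were not called. Adgrl4, an adhesion G protein-coupled receptor, was 3.27 to 6.67 FPKM in DMD_ND, against 2.12 to 3.85 in WT_ND, and rose by 0.71 on the log2 scale (SE 0.23, limma adjusted p = 0.0120) with overlapping groups. Ptprb, the endothelial phosphatase that removes phosphate from Tek, was 2.84 to 5.92 FPKM in DMD_KD (median 4.28) and 2.96 to 4.64 in DMD_ND (median 3.69), against 7.62, 9.15, 5.85 and 11.3 in WT_ND. Every DMD_ND library lay below every wild-type library, while 1 DMD_KD library, replicate 10 at 5.92 FPKM, just exceeded the lowest wild-type one. The log2 fold change in DMD_ND against WT_ND was -0.97 (SE 0.17, limma adjusted p = 8.26e-05), -0.95 relative to the median gene under TPM, where the value itself was -0.13 and not called.

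Kdr, the main receptor for Vegfa, was 1.79 to 4.06 FPKM in DMD_KD (median 3.06) and 2.08 to 3.84 in DMD_ND (median 2.67), against 6.36, 5.20, 4.62 and 3.32 in WT_ND. Wild-type replicate 9 lay inside the mutant range. The log2 fold change in DMD_ND against WT_ND was -0.59 (SE 0.19, limma adjusted p = 0.00979). It was -0.36 and not called with library weights (adjusted p = 0.0843), and -0.44 with the 3 libraries of lowest weight left out (adjusted p = 0.0961). Tek, the angiopoietin receptor, had a log2 fold change of -0.26 (95% interval -0.56 to 0.04) and Tie1, its partner, one of -0.07 (-0.37 to 0.23). Eng, a co-receptor for BMP ligands, was at -0.03 and Aplnr, the apelin receptor, at 0.17, and neither was called.

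The transcription factors showed no call in either direction. Erg, the ETS factor that maintains endothelial identity, averaged 3.42 ± 0.522 FPKM in DMD_ND and 2.79 ± 0.726 in WT_ND, a log2 fold change of 0.23 (95% interval -0.06 to 0.53). The SOX genes Sox7, Sox17 and Sox18 had log2 fold changes of 0.14, -0.10 and 0.11. Among the 6 secreted, signalling and other genes, Egfl7, a secreted protein of vessel walls, was the only one called. It was 5.25 to 10.7 FPKM in DMD_ND and 3.03 to 5.18 in WT_ND, without overlap, and rose by 0.83 on the log2 scale (SE 0.18, limma adjusted p = 0.000579). Vwf, the clotting factor stored in endothelial granules, stood at 0.16, Nos3, the endothelial nitric oxide synthase, at 0.30, Ecscr, an endothelial surface protein, at 0.40, Rasip1, a regulator of vessel lumen formation, at 0.00 and Myct1 at -0.28.

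**Figure D3:**
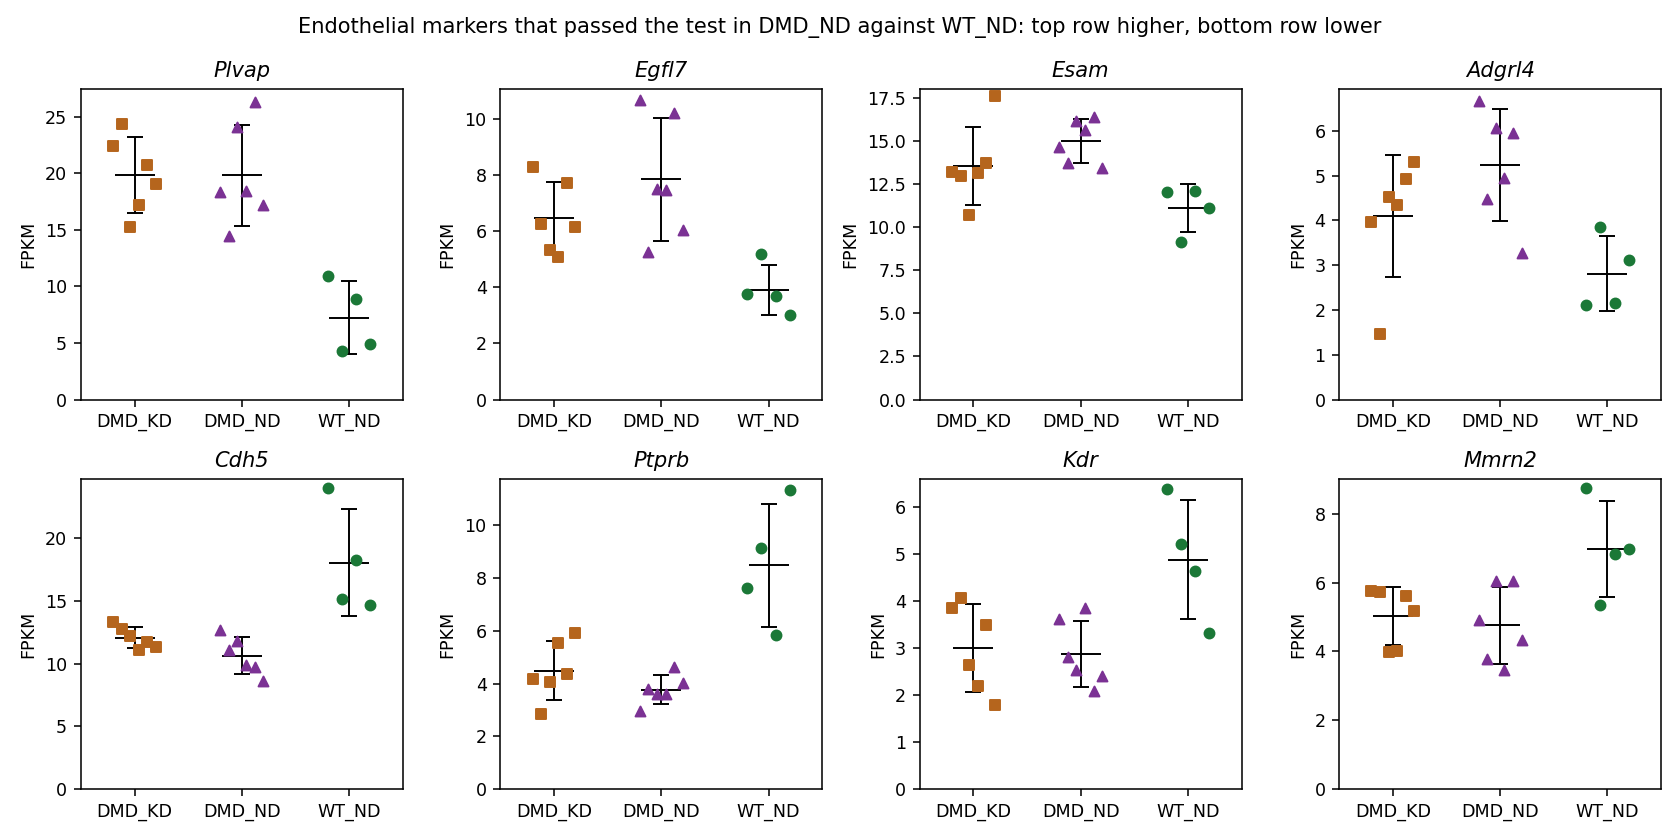
FPKM of the 8 markers called in DMD_ND against WT_ND, in each library of DMD_KD, DMD_ND and WT_ND; points are libraries, and the horizontal mark and bars are the mean and SD. Plvap, Egfl7 and Esam (top row) lie higher in DMD_ND with no overlap, and Cdh5 and Ptprb (bottom row) lie lower with none, while Adgrl4, Kdr and Mmrn2 overlap.

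Scaling set the direction of some of these values and not of others. Under TPM, 20 of 25 markers were called higher in DMD_ND than in WT_ND and none lower. All genes shifted with them: 70.7% of all tested genes were then higher and 5.94% lower. Of all calls, 92.2% were then higher, against 47.9% on the deposited scale. Relative to the median gene under TPM, 17 markers lay above and 8 below, and all 4 growth factors lay below. Such relative values resemble the deposited ones by construction, since both are scaled by the typical gene. Plvap, Egfl7, Esam and Adgrl4 were called higher and Vegfb lower on both scales, while Angpt2, not called on the deposited scale, was called higher under TPM (0.65). The values of Cdh5, Kdr and Mmrn2 changed sign between the scales, as did those of Vegfa, Angpt1 and Angpt2, which were positive under TPM, and Ptprb stayed negative but was not called under TPM. Leaving out the 3 libraries of lowest weight on the deposited scale gave 5 higher and 3 lower markers and 3 lower growth factors, with Plvap at 1.87, Ptprb at -1.24, Cdh5 at -0.46, Vegfb at -1.01 and Angpt1 at -0.81, all called. The only wild-type libraries kept in that run were replicates 3 and 9, those with the highest Vegfa and Angpt1.

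DMD_KD against DMD_ND compares the diets within mutant muscle. No marker and no growth factor was called (limma, Benjamini-Hochberg adjusted p under 0.05). Over all 12119 genes 1 was called, or 0.00825%, and 1727 had an unadjusted p under 0.05. Of the members, 0 of 25 markers and 1 of 4 growth factors had an unadjusted p under 0.05. Marker log2 fold changes lay between -0.33 (Adgrl4) and 0.23 (Aplnr), with a median of -0.03 against -0.01 over all tested genes.

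For the members called in DMD_ND against WT_ND, the intervals of the diet difference reached to both sides of 0. The log2 fold change of Plvap in DMD_KD against DMD_ND was 0.01 (95% interval -0.39 to 0.42), that of Cdh5 0.17 (-0.07 to 0.42), that of Ptprb 0.18 (-0.13 to 0.50) and that of Kdr 0.03 (-0.32 to 0.38). Vegfb averaged 23.1 ± 5.61 FPKM in DMD_KD and 18.1 ± 1.17 in DMD_ND, with a log2 fold change of 0.31 (-0.02 to 0.64, limma adjusted p = 0.368). Its highest value was that of DMD_KD replicate 3, and the other DMD_KD libraries lay between 17.5 and 24.6. Vegfa averaged 43.8 ± 16.1 FPKM in DMD_KD and 44.2 ± 5.01 in DMD_ND, with a log2 fold change of -0.11 (-0.75 to 0.53), an interval that holds changes of either sign. Angpt2 averaged 4.21 ± 1.19 FPKM in DMD_KD and 5.65 ± 1.32 in DMD_ND, with a log2 fold change of -0.36 (-0.70 to -0.02, unadjusted p = 0.0411, adjusted p = 0.334). Angpt1 averaged 2.15 ± 0.663 FPKM in DMD_KD and 2.52 ± 0.284 in DMD_ND, with a log2 fold change of -0.18 (adjusted p = 0.598).

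The comparison of DMD_KD with WT_ND differs in diet as well as genotype and shares its wild-type libraries with the first comparison, so the 2 comparisons are not independent. Of 25 markers, 2 were higher (27.3% of all tested genes were) and 5 lower (31.1% of all tested genes were), and all 4 growth factors were lower. Plvap rose by 1.41 (SE 0.22, limma adjusted p = 3.41e-05) and Egfl7 by 0.61 (SE 0.18, adjusted p = 0.00774) on the log2 scale. The lower markers were Ptprb (-0.78), Kdr (-0.56), Cdh5 (-0.52), Myct1 (-0.41) and Mmrn2 (-0.40). The call of Myct1 (adjusted p = 0.0490) was lost on leaving out any of 12 libraries, among them DMD_KD replicate 3, and that of Kdr without WT_ND replicate 1 (-0.44, adjusted p = 0.0682). That of Mmrn2 was lost without WT_ND replicates 1, 4 or 9 or DMD_KD replicates 5 or 7, with adjusted p up to 0.136. With the 3 libraries of lowest weight left out, Plvap was at 1.82 and Cdh5 at -0.30, both called, and Egfl7 at 0.57 was not (adjusted p = 0.0627).

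The growth factors in DMD_KD against WT_ND had log2 fold changes of -1.02 for Vegfb (SE 0.17, limma adjusted p = 9.17e-05), -0.94 for Vegfa (SE 0.34, adjusted p = 0.0252), -0.62 for Angpt2 (SE 0.18, adjusted p = 0.00802) and -0.59 for Angpt1 (SE 0.19, adjusted p = 0.0143). Without WT_ND replicate 3, Vegfa was at -0.58 (adjusted p = 0.126) and Angpt1 at -0.46 (adjusted p = 0.0619), neither called. Both calls were also lost without WT_ND replicate 9 (Vegfa -0.84, adjusted p = 0.0699; Angpt1 -0.45, adjusted p = 0.0655), and that of Vegfa without DMD_KD replicate 1 (-0.85, adjusted p = 0.0530). With the 3 libraries of lowest weight left out, Angpt2 was at -0.45 (adjusted p = 0.0824) and not called. Under TPM, Vegfb was the only growth factor called (-0.30), and all 4 lay below the median gene.

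**Figure D4:**
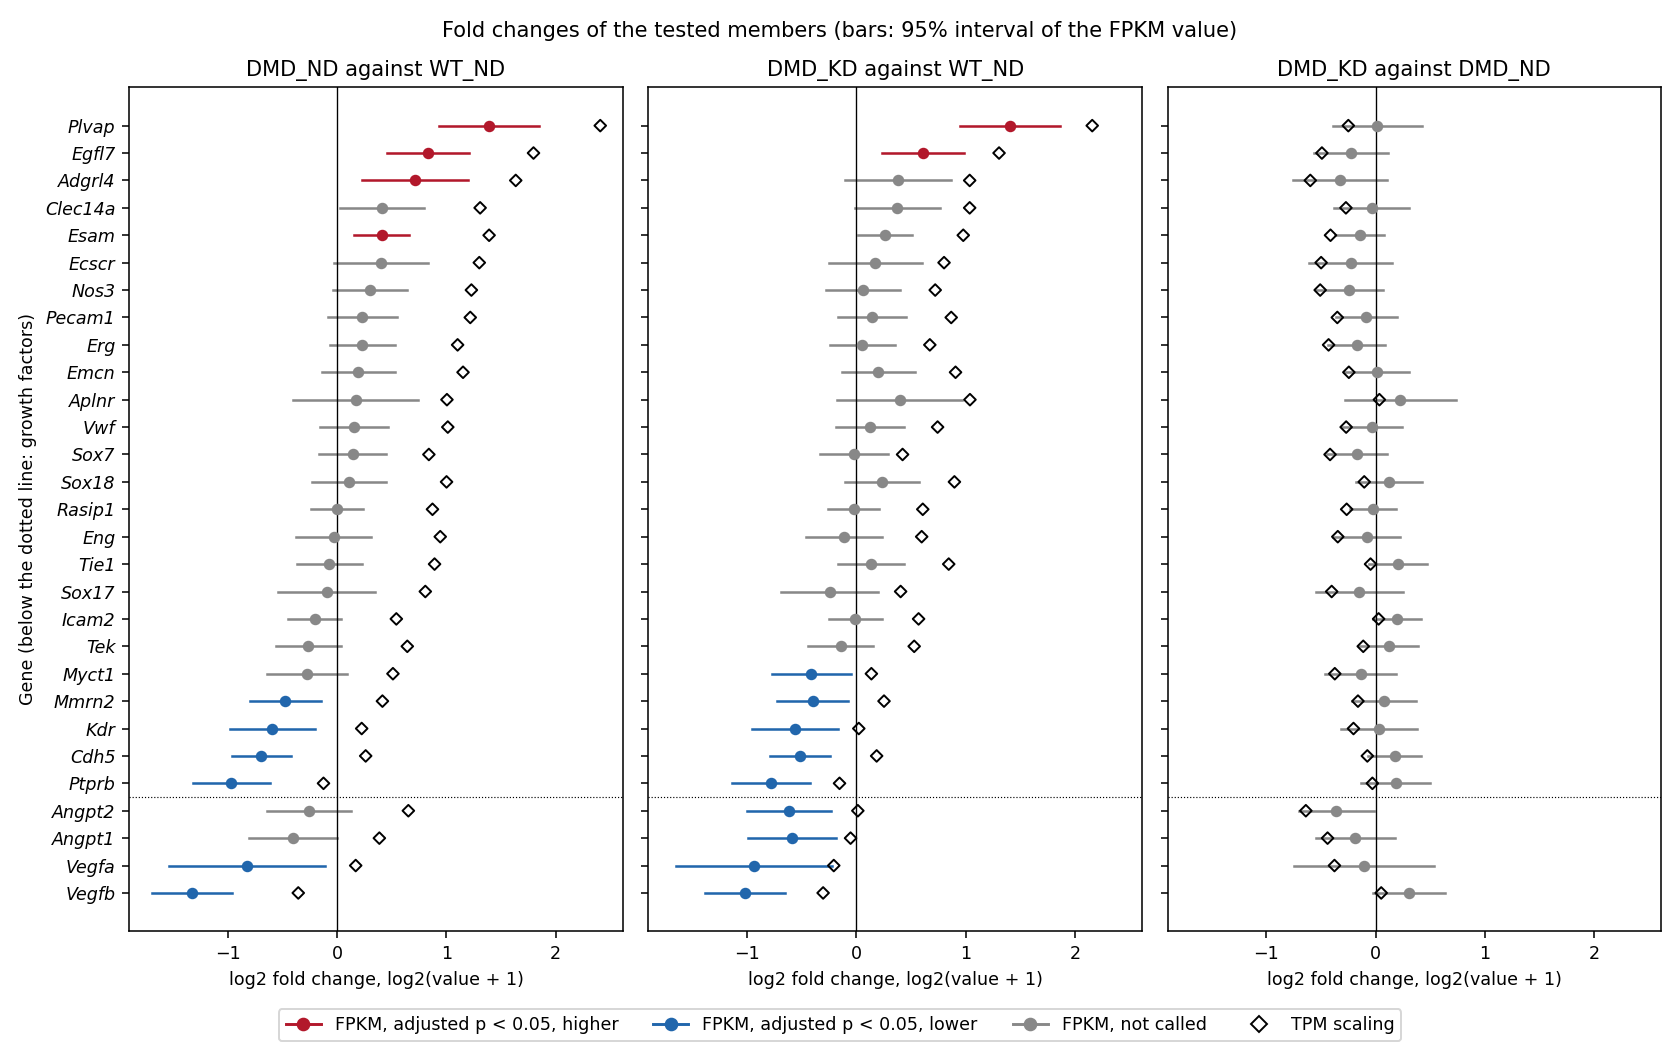
Log2 fold changes of the 25 tested markers and 4 growth factors (below the dotted line) in DMD_ND against WT_ND, DMD_KD against WT_ND and DMD_KD against DMD_ND; filled points with 95% intervals are deposited FPKM (red higher, blue lower, grey not called), open diamonds TPM. In both comparisons with WT_ND the markers spread on either side of 0 and all growth factors lie below it, and the diamonds lie to the right; in DMD_KD against DMD_ND no member is called.

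Within the wild-type group the members did not vary together. Replicates 3 and 9 had the higher Vegfa (168 and 97.4 FPKM, against 53.6 and 43.8 in replicates 1 and 4), Angpt1 and Ptprb, and replicates 1 and 4 the higher Plvap, Vegfb and Cdh5. Replicate 1 held the highest wild-type value of 13 of the 25 tested markers. DMD_KD replicate 3, which lay on the same side of the second component as wild-type replicates 1 and 4, had the lowest Vegfa (18.2 FPKM), Angpt1 (1.16), Ptprb (2.84) and Adgrl4 (1.47) of its group and the highest Vegfb (33.6) and Plvap (24.4). The median coefficient of variation of the markers was 19.4% in DMD_KD, 22.7% in DMD_ND and 23.4% in WT_ND. That of the growth factors was 29.5% in DMD_KD, 11.3% in DMD_ND and 34.2% in WT_ND, with Vegfa in WT_ND the most variable at 62.4%.

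Other genes of the vessel wall gave context in DMD_ND against WT_ND. There 31.5% of all tested genes were higher and 34.3% lower, and under TPM 70.7% and 5.94%. Of 27 further endothelial markers tested, 7 were higher, 5 lower and 15 not called, with a median log2 fold change of 0.07, and under TPM 19 were higher and 0 lower. The 3 with the smallest p were Tspan18 (1.16), Stab1, a scavenger receptor that macrophages also make (1.97), and Sema3g (-0.92). Of 15 Notch and arteriovenous genes, 3 were higher (Dll1, Hes1 and Jag1, at 0.89, 0.73 and 0.64) and 4 lower, and under TPM 11 were higher and 0 lower. Of 4 other VEGF ligands and receptors, Nrp2 (0.97) and Vegfc (0.56), both of which act in lymphatic growth, were higher, and Pgf (-0.36) and Nrp1 were not called.

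Genes of endothelial activation and adhesion rose in all 9 tested cases, with a median log2 fold change of 1.62. The list also holds Thbd and Procr, anticoagulant receptors of resting endothelium that inflammatory activation is known to lower. Ackr1, the venular chemokine carrier, averaged 11.2 FPKM in DMD_ND and 2.32 in WT_ND (log2 fold change 1.86), Vcam1, a leukocyte adhesion receptor that muscle stem cells also express, 6.28 and 0.675 (2.11), and Plat, tissue plasminogen activator, 8.49 and 2.56 FPKM (1.398). Tip cell and sprouting genes rose in 6 of 9 cases with 0 lower, led by Lama4 (1.28), Nid2 (1.13) and Plaur (1.94). Of 9 genes of capillary lipid and water transport, 4 were higher and 5 lower, among them Tcf15, a transcription factor of muscle capillary endothelium (-1.52), and Aqp1, a water channel (-1.01), both lower, and Meox2 (0.96), a partner of Tcf15, which was higher; under TPM 4 were higher and 1, Tcf15, was lower. Of 12 other transcription factors of endothelium, 5 were higher and 1 lower, led by Lmo2 (1.98), Elk3 (0.87) and Lyl1 (1.17). Of 9 genes of the BMP9 and ALK1 pathway, 5 were higher and 1 lower, led by Id2 (2.58), Smad1 (0.97) and Id3 (1.40). The background of each of these counts was 31.5% of all tested genes higher and 34.3% lower, and under TPM 70.7% and 5.94%.

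On the deposited scale, most other angiogenic ligands went the other way from Vegfb and Vegfa. Of 14 other angiogenic growth factors tested, 10 were higher and 2 lower, where 31.5% of all tested genes were higher and 34.3% lower. Their median log2 fold change was 0.80, led by Tgfb1 (2.38), Ccn2 (3.25) and Angptl2 (1.48). Under TPM 12 of the 14 were higher and 0 lower, where 70.7% of all tested genes were higher and 5.94% lower. Vegfa itself was then at 0.17 and not called. Of 10 inhibitors of angiogenesis, 9 were higher and none lower, with a median of 1.82, and under TPM all 10 were higher. Col18a1, the source of endostatin, averaged 10.3 FPKM in DMD_ND and 1.89 in WT_ND (1.97), Thbs2, a thrombospondin, 11.7 and 0.571 (2.99), and Sparc 492 and 99.6 (2.27). Many of these genes are also made by fibroblasts and macrophages, whose markers were higher. Macrophage markers summed to 299 to 430 FPKM in DMD_ND and 20.7 to 55.9 in WT_ND, markers of fibro-adipogenic progenitors to 2139 to 3614 and 190 to 430, and no gene of either list was at 0 in all libraries. Their part in these results was not tested.

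On the deposited scale, genes known to regulate Vegfa were mostly lower, which for those of the hypoxia response did not hold under TPM. Of 6 tested genes of the PGC-1 axis, which raises Vegfa in exercised muscle, 5 were lower and 1 higher, and 4 and 1 under TPM. Ppargc1a, which encodes PGC-1α, averaged 1.23 FPKM in DMD_ND and 6.78 in WT_ND (log2 fold change -1.77, SE 0.21, limma adjusted p = 1.14e-06), Esrrg, an estrogen-related receptor, 0.863 and 4.17 (-1.48), and Prkaa2, of the AMP-activated protein kinase, 1.92 and 36.2 (-3.65). Of 17 genes of the hypoxia response, 10 were lower and 4 higher, whereas under TPM 4 were lower and 8 higher. Of all tested genes 34.3% were lower and 31.5% higher, and under TPM 5.94% and 70.7%. Epas1, or HIF-2α, averaged 22.1 FPKM in DMD_ND and 65.7 in WT_ND (-1.53), and Pdk1 and Pfkfb4 were at -1.02 and -1.75. Genes of muscle fibres, a main source of Vegfa, fell in 10 of 11 cases with a median of -1.24, and under TPM in 3 with 1 higher. Their part in the fall of Vegfa and Vegfb on the deposited scale was not tested.

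Of 14 pericyte and smooth muscle markers, 7 were higher and 2 lower, where 31.5% of all tested genes were higher and 34.3% lower. Under TPM 10 of them were higher and 2 lower, where 70.7% of all tested genes were higher and 5.94% lower. The smallest p-values were those of Anpep (2.20), Lmod1 (-1.79) and Abcc9 (-1.44). Anpep is also made by macrophages. The lymphatic markers Pdpn, Ccl21 and Lyve1 had log2 fold changes of 3.06, 2.96 and 1.38, of which Pdpn and Lyve1 are also expressed by fibroblasts or macrophages. Of the other lists, all 5 adipocyte markers and 1 of 4 Schwann cell markers were higher (4 of 4 Schwann cell markers under TPM). Of 7 satellite cell markers 3 were higher and 2 lower, of 8 immediate early genes 3 were higher and 3 lower (under TPM 7 and 0, and 4 and 0), and the only tested platelet marker, Pf4, was higher at 3.05. None of the erythroid markers passed the filter on low values.

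**Figure D5:**
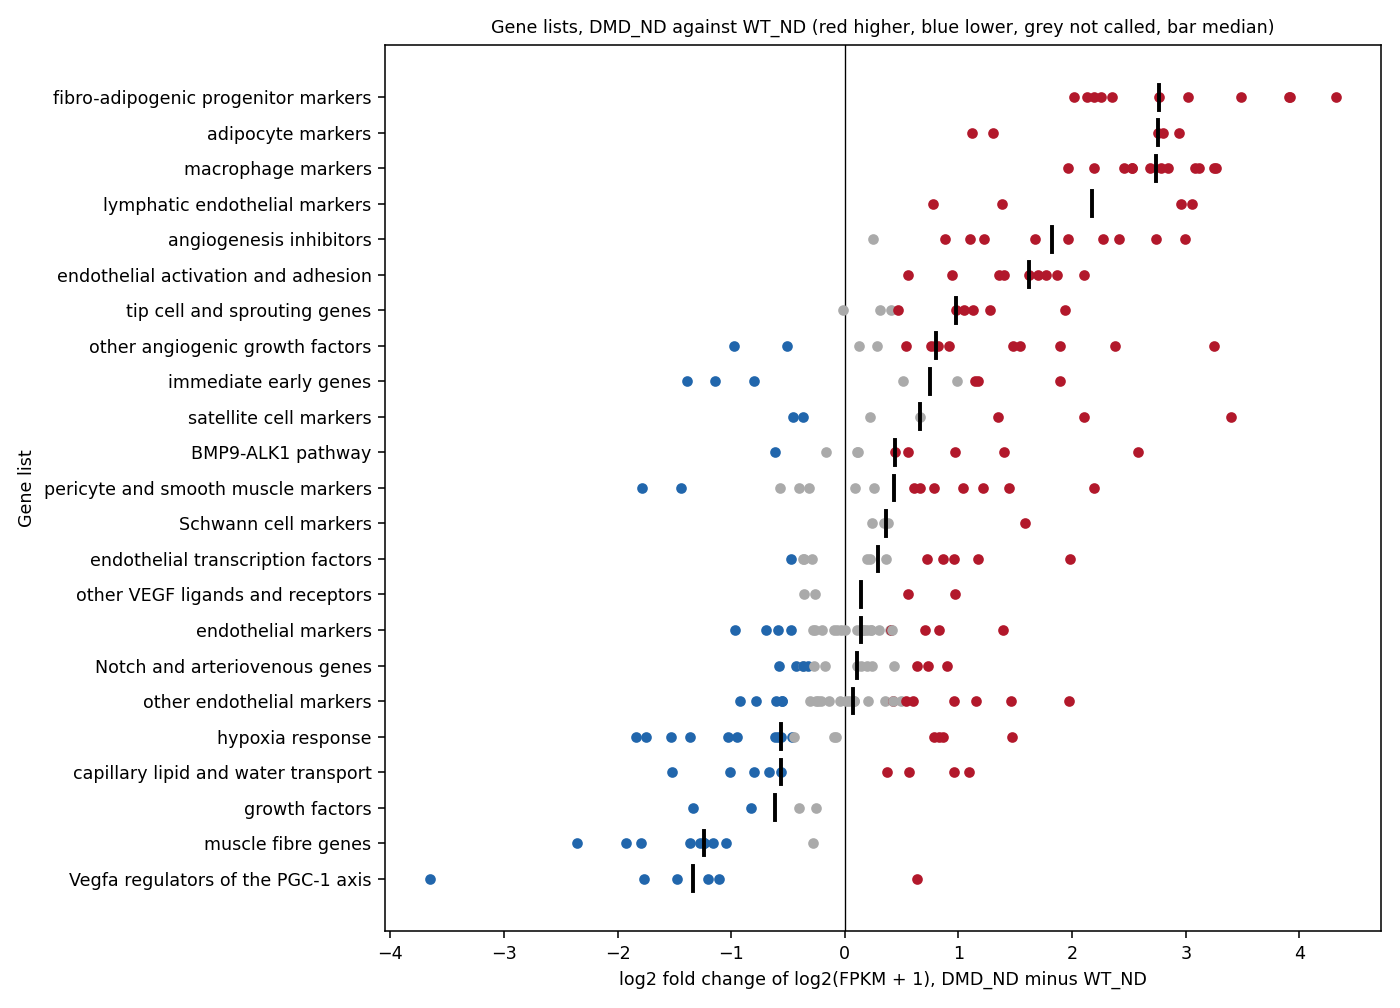
Log2 fold changes of log2(FPKM + 1) in DMD_ND against WT_ND for each tested gene of the lists with at least 4 tested genes (vertical axis), red higher, blue lower and grey not called, with a black bar at each list's median. The endothelial markers centre near 0 (median 0.14), genes of endothelial activation and adhesion and inhibitors of angiogenesis lie above 0 (medians 1.62 and 1.82), and the growth factors and the PGC-1 axis lie below (-0.62 and -1.34).

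No gene of these lists was called in DMD_KD against DMD_ND. All 9 genes of endothelial activation and adhesion had negative log2 fold changes there (median -0.49, 7 at an unadjusted p under 0.05), as did all 10 inhibitors of angiogenesis (median -0.42, 5 at an unadjusted p under 0.05). Over all 12119 tested genes the median was -0.01, and 1727 had an unadjusted p under 0.05. Procr averaged 6.10 FPKM in DMD_KD and 12.8 in DMD_ND (-0.90, limma adjusted p = 0.140) and Thbd 7.44 and 13.5 (-0.74, adjusted p = 0.204). Btnl9, a capillary gene, averaged 2.77 FPKM in DMD_KD and 1.18 in DMD_ND (0.78, adjusted p = 0.140), with every DMD_KD library above every DMD_ND one, and Cd300lg 2.08 and 1.09 (0.60, adjusted p = 0.140). Markers of other cells were mostly negative in the same comparison: all 11 of fibro-adipogenic progenitors (median -0.35), 11 of 12 of macrophages (-0.17), all 5 of adipocytes (-1.03) and all 4 of Schwann cells (-0.35). All 11 muscle fibre genes had positive values (median 0.46). Their part in the values of the activation genes and inhibitors was not tested.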

How the data were processed

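The deposited table gives FPKM values of 16 libraries for 31141 Ensembl genes of the rat and, per the file headers, their symbols, positions and lengths. The submitters' processing notes name the build mRatBN7.2, HISAT2 2.0.5 and featureCounts 1.5.0-p3. Annotation release, read filters and strand setting are not given in the labels or headers, so reads of Eng, Egfl7, Tek, Angpt2 and Icam2 cannot be told apart from those of the genes on the opposite strand that overlap them (Fpgs, Agpat2 with Mir126a, Eqtn, Mcph1 and Prr29). FPKM times gene length gave whole reads for 100% of values (within 0.05 reads), and the library sizes behind the FPKM were median-of-ratios size factors, so the deposited values are already scaled between libraries. Poly-A RNA was used, per the labels' protocols.

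Columns were matched to samples by title, and none was left unmapped. Tests covered the 12119 genes that reached 1 FPKM in 4 or more libraries, as log2(FPKM + 1), a scale that understates the fold changes of low genes, with limma 3.58.1 in R 4.3.3, in 1 model of 3 groups over 16 libraries (13 residual degrees of freedom, trend and robust options). Tests are two-sided; p-values carry Benjamini-Hochberg adjustment over every tested gene, with calls at an adjusted p under 0.05. The fit was tested on simulated data. No libraries of a group agreed within sampling noise, so none was counted as a repeat. Alternatives were a pseudocount of 0.1, no filter, a mean of at least 5 FPKM, TPM, the replicate number as a block, library weights, 2-group fits, plain eBayes and leaving out each library. Leaving out 3 libraries together was added after seeing the data and kept only replicates 3 and 9 of WT_ND.

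The members and lists were chosen with earlier results of these data known. The rule for other genes named up to 3 per list with the smallest p in DMD_ND against WT_ND, and up to 2 in DMD_KD against DMD_ND. Promoters came from RefSeq windows of 300 bases (GRCr8), matched by symbol.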

Additional observations from a re-analysis of the deposited data

Results flagged for a closer look

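In 90 sets of 1 member in 1 group, 4 held a library far from the others by Dixon's criterion, which chance alone meets in about 1 of 20 groups. Eng was at 19.8 FPKM in DMD_ND replicate 7, where the other 5 libraries lay between 12.1 and 14.2. Nos3 was at 8.83 FPKM in the same library, against 4.32 to 5.96 in the others. Adgrl4 was at 1.47 FPKM in DMD_KD replicate 3, where the others lay between 3.97 and 5.31. Without that library Adgrl4 was called higher in DMD_KD against WT_ND (log2 fold change 0.58, limma adjusted p = 0.00554). Angpt1 was at 3.07 FPKM in DMD_ND replicate 11, against 2.29 to 2.55 in the others.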

How the results depend on the processing

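Under TPM, markers called in DMD_ND against WT_ND numbered 20 higher and 0 lower and growth factors 1 higher and 1 lower. In DMD_KD against WT_ND they were 17 and 0 markers and 0 and 1 growth factors. Of all tested genes, 70.7% were then higher and 5.94% lower in DMD_ND than in WT_ND, and 57.2% and 4.73% in DMD_KD. Signs turned under TPM in DMD_ND against WT_ND for Cdh5 (0.26), Kdr (0.22), Mmrn2 (0.41), Icam2 (0.54), Tek (0.64), Tie1 (0.89), Eng (0.94), Sox17 (0.81), Rasip1 (0.87), Myct1 (0.51), Vegfa (0.17), Angpt1 (0.39) and Angpt2 (0.65), and in DMD_KD against WT_ND for Cdh5 (0.19), Icam2 (0.57), Mmrn2 (0.25), Kdr (0.022), Tek (0.53), Sox7 (0.42), Sox17 (0.41), Eng (0.60), Rasip1 (0.61), Myct1 (0.14) and Angpt2 (0.013); the scale itself moved all genes. With no filter, 1 growth factor was lower in DMD_ND and 3 markers were lower in DMD_KD than in WT_ND. A mean of at least 5 FPKM left 6244 genes, of which 4361 and 3950 were called in DMD_ND and DMD_KD against WT_ND. In DMD_KD 3 markers were then lower, as Kdr and Myct1 did not reach that mean and were not tested. No call of a member that stayed in was lost. Library weights gave 7 and 4 higher markers in DMD_ND and DMD_KD against WT_ND and 93 genes called between the diets, and the 2-group fit gave 2 there. Apart from the members dropped by the 5 FPKM filter, the causes of these changes were not tested.

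Deviations of same-numbered libraries correlated at r between -0.66 and 0.41. Replicate 9 correlated best with its own number in all 3 comparisons (0.063, 0.23 and 0.41) and the other numbers in none, so the numbers were not taken to pair the libraries. The replicate block left 5 residual degrees of freedom, 2 markers lower in each mutant group than in WT_ND and 0 genes called between the diets. Under it Adgrl4 (0.64, adjusted p = 0.151), Kdr (-0.36) and Mmrn2 (-0.25) were not called in DMD_ND against WT_ND and Angpt1 was (-0.88, adjusted p = 0.00595), and Kdr (-0.38), Mmrn2 (-0.22) and Myct1 (-0.47) were not called in DMD_KD against WT_ND; other member calls did not change. Leaving out 1 library at a time gave 1 to 7 genes called between the diets (7 without DMD_KD replicate 9, 2 without DMD_ND replicate 7). It gave 1 to 3 growth factors lower in DMD_ND and 2 to 4 in DMD_KD than in WT_ND, and 2 to 5 markers lower in DMD_KD than in WT_ND. Leaving out DMD_KD replicate 3 and WT_ND replicates 1 and 4 together gave 3 genes called between the diets and 3 markers lower in DMD_KD than in WT_ND. No member was called between the diets under any alternative run. The genotype comparisons rest on 4 wild-type libraries.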
